A study of Mus musculus with 16 samples.

Results

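The cathepsins are proteases of endosomes and lysosomes, named by letter. The 10 described here (Ctsa, Ctsb, Ctsc, Ctsd, Ctsf, Ctsh, Ctsk, Ctsl, Ctss and Ctsz) were taken by symbol from 45664 gene entries of a count table, and all 10 had enough reads to be among the 15754 genes tested. They were measured by bulk RNA sequencing in 4 sorted populations of adult C57BL/6 mice aged 8 to 10 weeks, with 4 libraries each. Macrophages of the cornea were sorted on CD64 and F4/80 beside CD45 and CD11b, and microglia of the retina and of the brain on CD45 and CD11b alone. Monocytes of the bone marrow were sorted on CD115 and Ly6C beside CD45 and CD11b. Apart from an extraction text that describes another tissue and mouse line, the labels name no treatment and no genotype other than C57BL/6. Each cornea and each retina library held cells of 10 pooled mice, and the pool size of the brain and marrow libraries is uncertain, since their descriptions name retinal microglia against their titles and sources. Corneal tissue was treated with collagenase D at 37 °C, and retinal tissue was dispersed by pipette in the cold. The p-values measure the spread between libraries, and 3 libraries (cornea 1, retina 1 and retina 3) share a title number with another library of their population. Whether such libraries share a source of cells is not known. If they do, the 4 libraries of these populations are not independent, and p-values may be too small.

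Cathepsins are made as inactive precursors, tagged with mannose 6-phosphate, carried to the lysosome and activated there at acid pH. Most are cysteine proteases, whereas cathepsin D is an aspartic protease and cathepsin A a serine carboxypeptidase. Cystatins and stefins inhibit the cysteine members. In macrophages and microglia, cathepsins digest engulfed proteins, and several of them cut the invariant chain that guards the groove of MHC class II molecules.

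The windows before the start sites of 4 cathepsin genes are shown because they hold the 6-base word CACGTG. It is the core of the element bound by TFEB and related factors that drive lysosomal genes. Among these genes, Ctsd, Ctsf and Ctsl had alike levels over the 16 libraries (Pearson's r 0.877 to 0.985). So had members whose windows lack the word, with r = 0.941 for Ctsz with Ctsl and 0.891 for Ctss with Ctsf. Whether the word bears on the levels was not tested. Each run gives the 250 bases before a RefSeq start site (build GRCm38.p6), 5′ to 3′ on the strand of the gene, with CACGTG in capitals. The windows lie at chr7:142387828-142388077, minus strand, at chr19:4854915-4855164, plus strand, at chr13:64370521-64370770, minus strand, and, for a second start site of Ctsa that is 901 bases downstream of the first, at chr2:164833523-164833772, plus strand.
Ctsd: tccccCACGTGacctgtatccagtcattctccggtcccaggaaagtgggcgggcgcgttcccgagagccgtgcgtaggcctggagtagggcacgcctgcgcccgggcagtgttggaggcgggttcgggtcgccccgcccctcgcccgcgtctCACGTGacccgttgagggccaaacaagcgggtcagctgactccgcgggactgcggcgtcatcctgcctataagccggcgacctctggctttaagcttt
Ctsf: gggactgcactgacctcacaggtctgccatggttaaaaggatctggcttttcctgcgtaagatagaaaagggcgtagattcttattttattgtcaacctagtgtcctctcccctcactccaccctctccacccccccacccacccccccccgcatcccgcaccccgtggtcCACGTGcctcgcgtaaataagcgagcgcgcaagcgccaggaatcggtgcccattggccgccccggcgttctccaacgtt
Ctsl: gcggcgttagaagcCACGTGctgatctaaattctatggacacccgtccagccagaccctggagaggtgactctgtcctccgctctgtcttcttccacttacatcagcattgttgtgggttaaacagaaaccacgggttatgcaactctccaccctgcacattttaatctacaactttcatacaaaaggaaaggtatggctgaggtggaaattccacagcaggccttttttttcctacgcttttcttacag
Ctsa (second start site): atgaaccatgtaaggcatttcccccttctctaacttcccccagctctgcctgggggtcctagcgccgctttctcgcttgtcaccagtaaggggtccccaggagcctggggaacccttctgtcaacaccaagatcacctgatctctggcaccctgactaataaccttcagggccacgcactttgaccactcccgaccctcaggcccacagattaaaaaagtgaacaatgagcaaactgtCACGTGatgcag
CACGTG reads the same on both strands. It begins 245 and again 98 bases upstream of the Ctsd start site, 79 bases upstream for Ctsf, 236 for Ctsl and 12 for the second Ctsa start site. RefSeq windows (250 bases before and 50 after a start site) were at hand for 8 of the 10 members, Ctsb and Ctsh not among them, in 9 windows. CACGTG was in 4 of these 9 windows, and in 7.15% of all 32851 windows of that table. GAGGAA, or TTCCTC on the other strand, a core of PU.1 sites, was in 3 of the 9 (Ctsk, Ctss and Ctsc), and in 28.3% of all windows. TGANTCA, the AP-1 word, which reads the same on both strands, was in 0 of the 9 windows and in 7.81% of all. The words do not overlap each other in the printed runs. The Ctsl and second Ctsa windows lie wholly inside the GENCODE spans of their genes (chr13:64359337-64370890 and chr2:164832873-164841032). Parts of the Ctsd and Ctsf windows lie inside theirs too. The RefSeq start sites of the printed runs are thus downstream of the GENCODE gene starts. By that annotation the Ctsl and Ctsa words, and the Ctsd word 98 bases upstream, are within the genes. The Ctsd word 245 bases upstream and the Ctsf word lie outside them. A match is a run of letters, and no binding was measured.

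Library totals ranged from 8.68 to 21.76 M counts (M, mega). The file headers place all 4 retinal libraries in sequencing lane 2 and all 4 brain libraries in lane 3, so for this pair the lane and the tissue cannot be told apart. Cornea libraries 1 to 3 and marrow library 1 were in lane 2, and cornea library 4 and marrow libraries 2 to 4 in lane 3. Marker lists went with the labels: 6 microglia markers summed to 1667 to 1906 CPM (read counts scaled to a common library size, with TMM factors) in cornea, 20795 to 27261 in retina, 34686 to 38518 in brain and 211 to 287 in marrow libraries. Monocyte markers (4 genes) summed to 11379 to 15338 CPM in marrow libraries, 534 to 1071 in cornea and at most 14.4 in microglia. Other cells left transcripts in each eye and marrow sort: 6 keratocyte and fibroblast markers summed to 1388 to 2586 CPM in cornea libraries and at most 0.772 elsewhere. Corneal epithelial markers (5 genes) summed to 234 to 1377 CPM in cornea, and 6 photoreceptor markers to 724 to 6556 CPM in retina. In marrow libraries, 6 granulocyte markers summed to 605 to 2985 CPM and 4 erythroid markers to 349 to 2388 CPM. The part of these cells in the cathepsin levels was not tested.

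Cathepsin transcripts were more abundant in the 3 tissue populations than in monocytes. Their summed level was 34440, 38512, 34820 and 42132 CPM in cornea macrophages, and 35599, 35195, 46700 and 29289 CPM in retinal microglia. It was 34814, 33646, 40616 and 36455 CPM in brain microglia and 8770, 8248, 8620 and 9320 CPM in bone marrow monocytes. Every tissue library lay above every marrow library, and the 3 tissue populations overlapped. Means were 37476 ± 3607, 36696 ± 7266, 36383 ± 3048 and 8740 ± 445 CPM (SD, n = 4) in cornea, retina, brain and marrow. The place of the cornea in this order depends on the scaling. As a plain percentage of each library's counts, the 10 genes took 2.58% ± 0.229 in cornea, 4.36% ± 0.747 in retina, 3.99% ± 0.231 in brain and 0.961% ± 0.0343 in marrow (SD, n = 4), and then no cornea library reached a microglial one. TMM factors were 0.661 to 0.705 in cornea libraries and 1.07 to 1.25 in the others. In bulk samples, a change in the share of cells that make a transcript and a change in transcript per cell cannot be told apart.

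**Figure D1:**
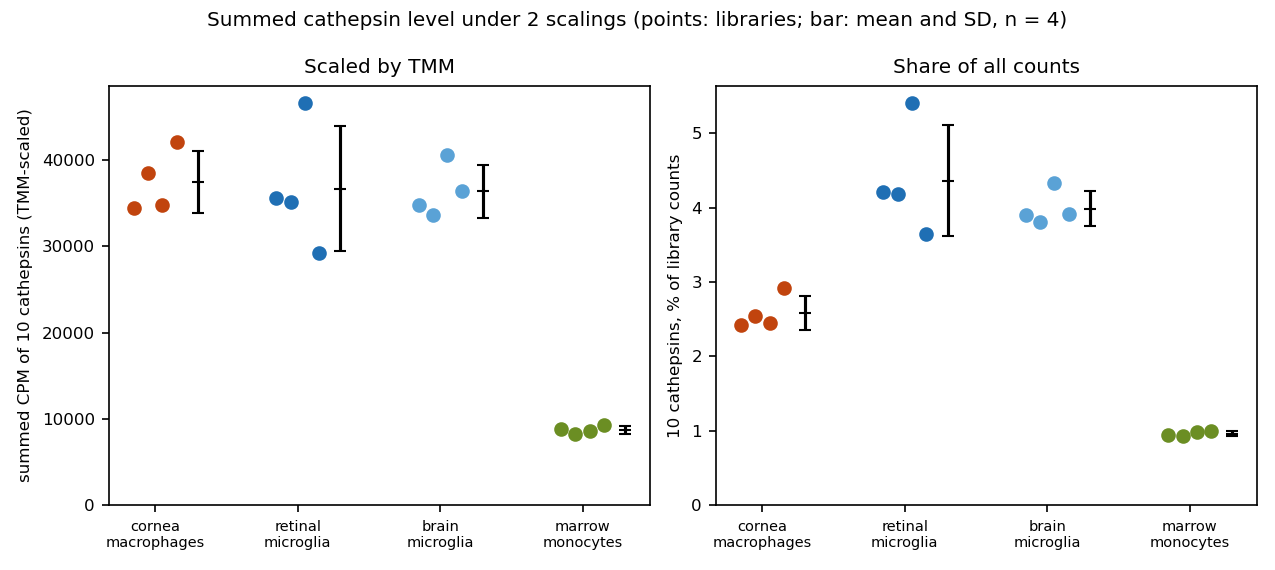
Summed level of the 10 cathepsins in each library, in CPM with TMM scaling (left) and as a percentage of the library's counts (right), with mean and SD (n = 4). Cornea libraries sit at 34440 to 42132 CPM among the microglial ones on the left, and at 2.42% to 2.92% below the microglial 3.65% to 5.41% on the right. Marrow libraries are the lowest in both panels, at 8248 to 9320 CPM on the left and near 1% on the right.

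The make-up of the cathepsin pool differed between the populations. Shares within a library do not depend on scaling between libraries. In cornea macrophages, Ctsb took 61.0% ± 5.76 of the cathepsin counts (SD, n = 4), Ctsd 13.9% ± 2.97 and Ctsz 7.14% ± 0.420. In retinal microglia, Ctsd took 38.6% ± 2.11, Ctss 25.5% ± 1.000 and Ctsb 15.4% ± 2.74 of the cathepsin counts. In brain microglia the shares were 48.6% ± 1.78 for Ctsd, 20.1% ± 0.516 for Ctss and 14.0% ± 1.23 for Ctsb. In bone marrow monocytes the counts were spread over more members: Ctsb took 31.6% ± 1.30, Ctss 19.7% ± 0.936, Ctsc 18.0% ± 3.18, Ctsa 9.74% ± 1.32 and Ctsh 8.43% ± 0.373 of the counts, and Ctsd 5.19% ± 0.812. The 3 genes with the most counts together held 82.0% of the cathepsin counts in cornea, 79.5% in retina, 82.7% in brain and 69.3% in marrow.

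Longer transcripts collect more reads, so these shares of counts do not rank the genes by level, and the order of levels is given after division by the gene length in the count table. On this per-length scale, Ctsb had the largest share in cornea macrophages (41.4% ± 5.51, SD, n = 4), and Ctsd in brain microglia (43.9% ± 1.58). In retinal microglia, Ctss came before Ctsd, with 40.7% ± 1.66 and 33.2% ± 1.50 of the per-length total. In monocytes, Ctss took 41.1% ± 1.01 and Ctsb 18.9% ± 0.901 of it. Among 15752 ranked genes, Ctss had rank 2 by level per length in retinal microglia and Ctsd rank 2 in brain microglia, whereas Ctsb had rank 14 in cornea macrophages and Ctss rank 28 in monocytes.

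**Figure D2:**
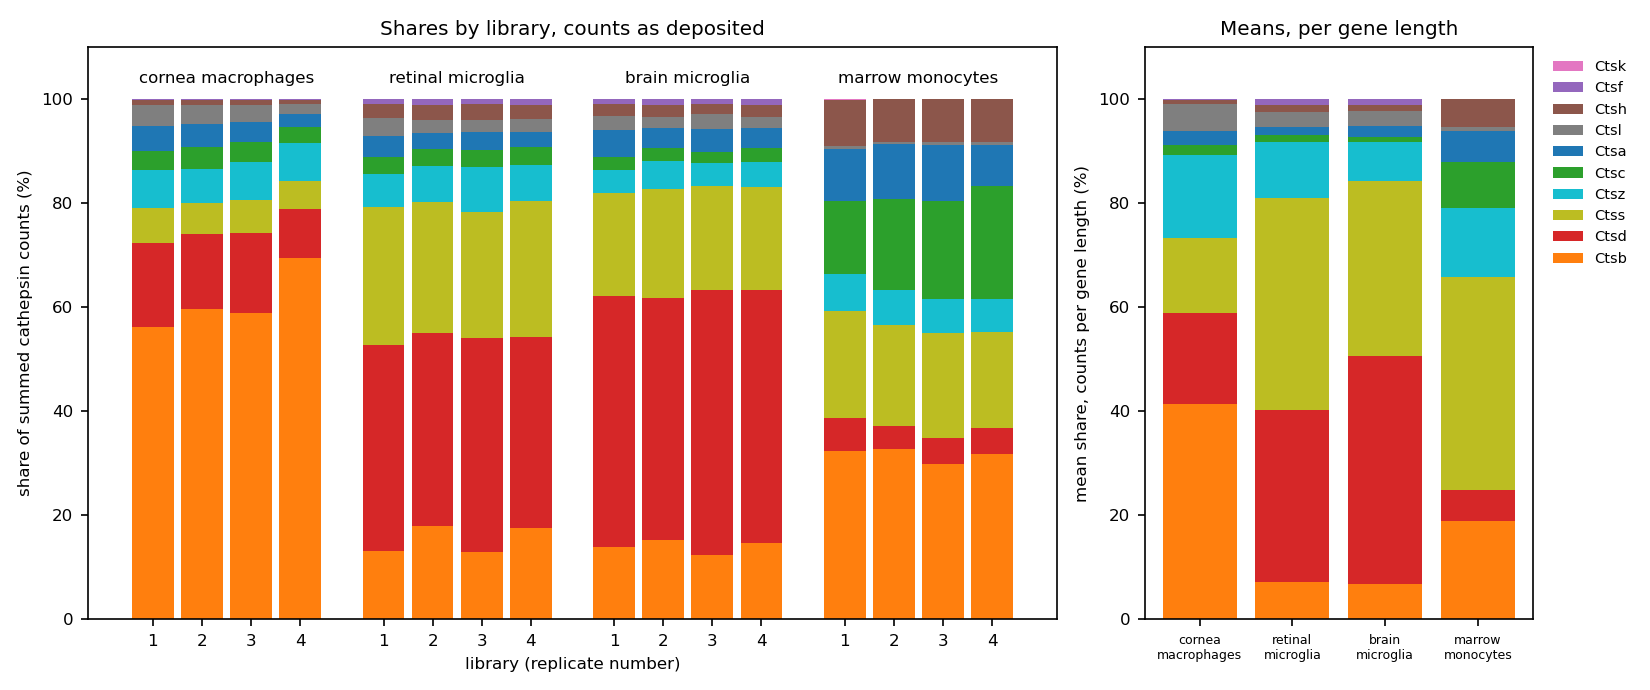
Share of each cathepsin in the summed cathepsin counts of a library, in percent, as stacked bars for the 16 libraries by population. Ctsb fills 56.2% to 69.4% of the cornea bars, Ctsd 36.7% to 41.1% of the retinal and 46.6% to 50.9% of the brain bars, and the marrow bars are split among Ctsb, Ctss, Ctsc, Ctsa and Ctsh.

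The ratio of Ctsb to Ctsd counts within a library, which needs no scaling, lay between 3.48 and 7.26 in cornea macrophages, 0.314 and 0.483 in retinal microglia, 0.243 and 0.325 in brain microglia, and 5.12 and 7.45 in monocytes. Cornea macrophages and monocytes thus overlapped in this ratio, and each lay above all microglial libraries. The ratio of Ctsb to Ctss parted them: it was 8.45 to 12.9 in cornea macrophages, 0.493 to 0.705 in retinal microglia, 0.618 to 0.744 in brain microglia and 1.48 to 1.73 in monocytes. The ratio of Ctsh to Ctsl was 13.2 to 18.1 in monocytes, against 0.218 to 0.410 in cornea macrophages, 0.815 to 1.37 in retinal and 0.722 to 1.07 in brain microglia.

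Cathepsin D, the aspartic endopeptidase whose loss causes a neuronal storage disease in mice and humans, was higher in both microglia than in the other populations. Ctsd (chr7:142375911-142388038, minus strand, GENCODE vM21 on GRCm38) had 5561, 5508, 5383 and 4025 CPM in the 4 cornea libraries and 14112, 13032, 19189 and 10750 CPM in the retinal ones. The brain libraries had 16790, 15688, 20687 and 17717 CPM, against 554, 362, 437 and 466 CPM in the marrow libraries. Retina and brain overlapped, cornea lay below both without overlap, and marrow lay below all. The fold against monocytes was 39.0 in brain microglia (log2 fold change 5.28, SE 0.21, adjusted p = 1.57e-12, edgeR quasi-likelihood test, where log2 fold changes are of the first-named population over the second and SE is their standard error), 31.4 in retinal microglia and 11.3 in cornea macrophages. Cornea macrophages had 3.46-fold less Ctsd than brain microglia (log2 fold change -1.79, SE 0.18, adjusted p = 1.56e-07, edgeR).

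Cathepsin B, a cysteine protease that acts both inside chains and as a dipeptidyl carboxypeptidase, stood out in the cornea. Ctsb (chr14:63122462-63145923, plus strand) had 19358, 22987, 20470 and 29228 CPM in cornea libraries, and 4661, 6297, 6026 and 5153 CPM in retinal ones. In brain libraries it had 4829, 5099, 5016 and 5357 CPM, against 2836, 2694, 2564 and 2958 CPM in marrow libraries. All 4 cornea libraries were above the others, the microglia overlapped, and marrow libraries were the lowest. The cornea level was 4.16-fold that of retinal microglia (log2 fold change 2.06, SE 0.14, adjusted p = 1.12e-09, edgeR), 4.53-fold that of brain microglia and 8.33-fold that of monocytes (edgeR adjusted p = 5.06e-10 and 1.24e-11). With total counts in place of TMM these log2 fold changes were 1.26, 1.51 and 2.38, and all passed the test. Microglia had 2.00 times (retina) and 1.84 times (brain) the monocyte level (edgeR adjusted p = 7.94e-06 and 3.11e-05).

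Cathepsin S, a cysteine endopeptidase that stays active at neutral pH and trims the invariant chain in antigen-presenting cells, was highest in microglia. Ctss (chr3:95526786-95556403, plus strand) had 2292, 2340.1, 2185 and 2272 CPM in cornea, 9446, 8929.8, 11306 and 7616 CPM in retina, 6878, 7014, 8124 and 7204 CPM in brain and 1803, 1612, 1734 and 1715 CPM in marrow libraries. The microglia overlapped each other, and cornea and marrow lay below them and apart from each other. Cornea macrophages had 4.10-fold less than retinal microglia (log2 fold change -2.04, SE 0.12, adjusted p = 1.99e-10, edgeR) and 3.21-fold less than brain microglia (edgeR adjusted p = 1.77e-09). Against monocytes, the log2 fold change of cornea macrophages was 0.41 (edgeR adjusted p = 0.00603) with TMM, but -0.27 (edgeR adjusted p = 0.0221) with total counts only, so its direction is set by the scaling. Within lane 2, which has 1 marrow library, the log2 fold change was 0.33, given with no test.

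Cathepsin K, the collagenase of osteoclasts, is encoded beside Ctss on chromosome 3 (chr3:95499256-95509362, plus strand), with 17423 bases between the genes, yet it was nearly absent where Ctss was highest. Ctsk had 3.40, 3.58, 5.08 and 6.58 CPM in cornea libraries, and 2, 9, 0 and 0 counts in the retinal and 0, 2, 0 and 4 counts in the brain libraries. In marrow, library 1 had 11.0 CPM (244 counts) and the other libraries had 3, 7 and 0 counts. Each cornea library was above each microglial one, and the marrow level was that of a single library. Cornea macrophages were higher than retinal microglia (log2 fold change 4.91, SE 1.42, adjusted p = 0.0058, edgeR) and than brain microglia (log2 fold change 5.09, SE 1.49, adjusted p = 0.0064, edgeR). The retinal call ended without the 3 libraries named above that share title numbers (edgeR adjusted p = 0.0611). Without retinal library 2 or brain library 4, these log2 fold changes became 6.59 and 5.99. Calls of lower Ctsk in retinal and brain microglia than in monocytes (log2 fold changes -4.30 and -4.48, edgeR adjusted p = 0.0137 and 0.0157) ended without marrow library 1 (-1.0 and -1.19, edgeR adjusted p = 0.51 and 0.476). The brain call also ended with the lane as a term (-2.89, edgeR adjusted p = 0.134) and within lane 3 (-1.14, edgeR adjusted p = 0.442), and the retinal call without the 3 libraries that share title numbers (-3.79, edgeR adjusted p = 0.102). Without marrow library 1, cornea macrophages exceeded monocytes by 3.89 on the log2 scale (edgeR adjusted p = 0.0137). In the cornea libraries, in the same order, the summed keratocyte and fibroblast markers were 1388, 1495, 2586 and 2223 CPM. The 5 osteoclast markers summed to 230 to 335 CPM in cornea libraries and to 16.4 CPM in marrow library 1, against 6.11 to 8.49 CPM in the other marrow libraries. Their part in the Ctsk level was not tested.

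Cathepsin L, an endopeptidase that trims the invariant chain in the mouse thymic cortex, separated tissue cells from monocytes. Ctsl (chr13:64359337-64370890, minus strand) had 1441, 1384, 1136 and 834 CPM in cornea, 1193, 863, 1060.4 and 701 CPM in retina, 956, 733, 1132 and 813 CPM in brain and 50.1, 37.3, 53.7 and 47.4 CPM in marrow libraries. The 3 tissue populations overlapped and marrow lay far below. The folds over monocytes were 25.4 in cornea macrophages (log2 fold change 4.67, SE 0.23, adjusted p = 1.89e-11, edgeR), 20.2 in retinal and 19.3 in brain microglia. None of the pairs of tissue populations passed the test for Ctsl (edgeR adjusted p = 0.151 for cornea against retina, 0.0828 for cornea against brain and 0.883 for retina against brain). Without cornea library 4, the lowest of its group, both cornea differences passed (0.45 and 0.51 on the log2 scale, edgeR adjusted p = 0.045 and 0.0243). Cornea against brain also passed without brain library 3 (0.49, edgeR adjusted p = 0.049).

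Cathepsin F, whose precursor carries a cystatin-like domain and whose loss in humans causes a neuronal storage disease, had the largest ratio between its highest and lowest population mean. Ctsf (chr19:4855130-4860918, plus strand) had 49.7, 48.9, 50.2 and 47.1 CPM in cornea, 337, 386, 477 and 318 CPM in retina, 368, 366, 367 and 399 CPM in brain and 1.85, 2.79, 0.548 and 1.70 CPM in marrow libraries. Retina and brain overlapped, cornea lay below them, and marrow below all, with 99 counts over its 4 libraries. Retinal and brain microglia had 219 and 216 times the monocyte level (log2 fold changes 7.77 and 7.76, SE 0.28 each, edgeR adjusted p = 5.83e-13 and 4.69e-13). Cornea macrophages had 7.75-fold less than retinal microglia (log2 fold change -2.95, SE 0.21, adjusted p = 2.17e-09, edgeR) and 28.3-fold more than monocytes.

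**Figure D3:**
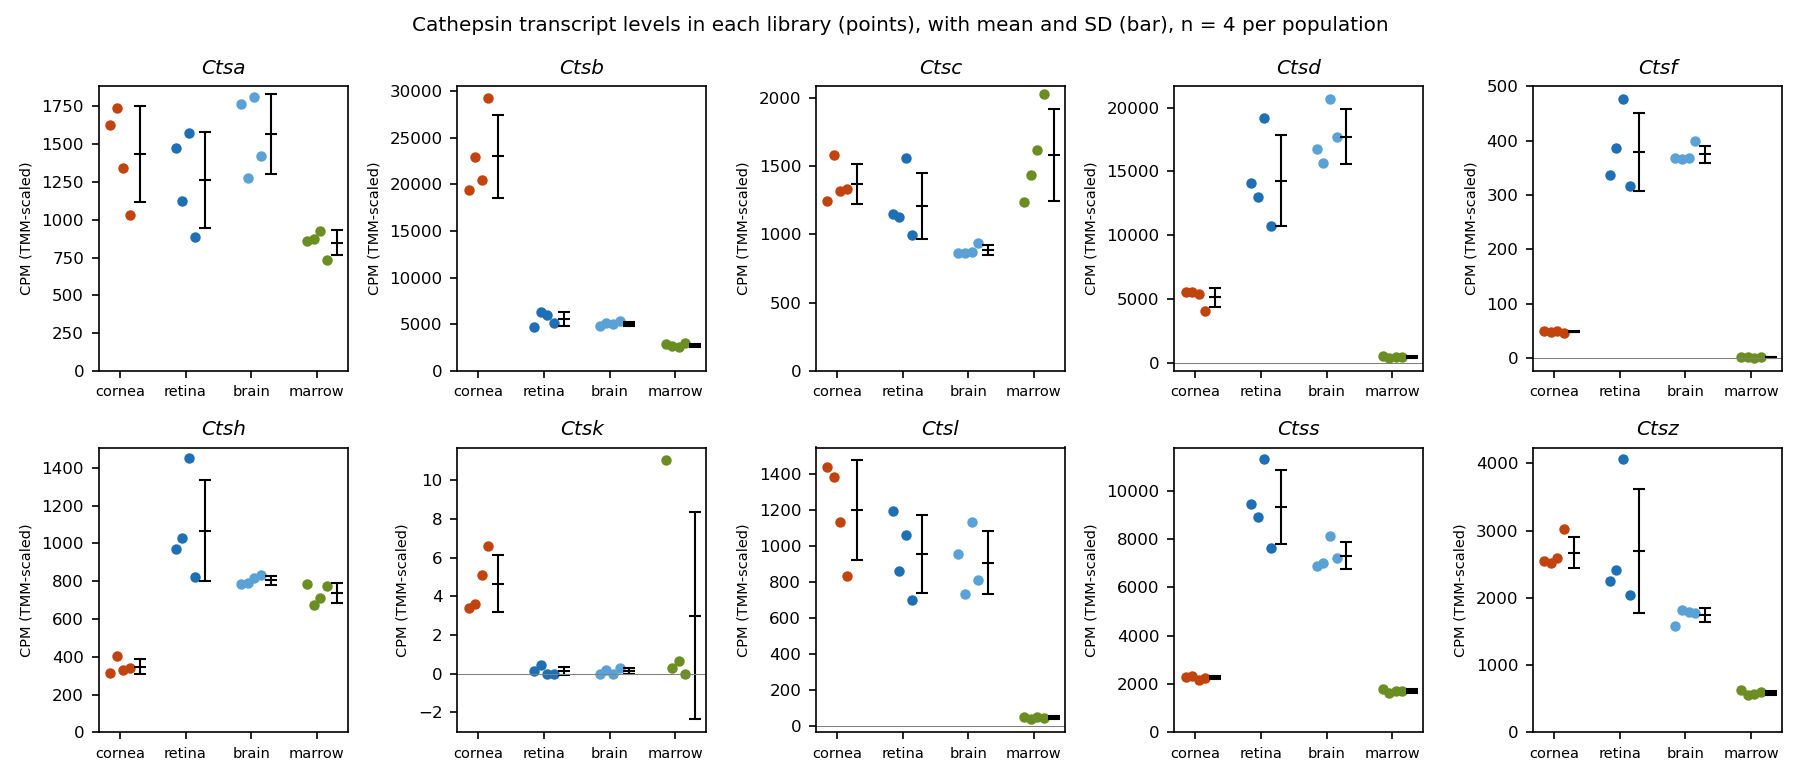
CPM (TMM-scaled, linear axes that differ between panels) of the 10 cathepsins in each library by population, with mean and SD (n = 4). Ctsb is highest in cornea (19358 to 29228 CPM), Ctsd, Ctss and Ctsf are high in both microglia, Ctsl, Ctsz and Ctsd are low in marrow, and the marrow mean of Ctsk rests on 1 library of 11.0 CPM.

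Exopeptidases clip residues from chain ends. Ctsz, a carboxypeptidase also called cathepsin X (chr2:174427493-174439039, minus strand), had 2551, 2519.6, 2596 and 3018 CPM in cornea, 2254, 2408, 4059 and 2045 CPM in retina, 1586, 1822, 1784 and 1776 CPM in brain and 627, 558, 575 and 596 CPM in marrow libraries. Retinal library 3 was far above the other retinal libraries, and marrow lay below all tissue libraries. The tissue populations had 4.53 (cornea), 4.57 (retina) and 2.96 times (brain) the monocyte level (edgeR adjusted p = 9.81e-09, 1.36e-08 and 6.16e-07). Retinal exceeded brain microglia by 0.63 on the log2 scale (SE 0.17, edgeR adjusted p = 0.0247). That call ended with the lane as a term (0.69, edgeR adjusted p = 0.183) and without brain library 1, 3 or 4 (edgeR adjusted p = 0.072, 0.059 and 0.058), and without retinal library 3 the difference was 0.36 (edgeR adjusted p = 0.0387). Cornea against brain was 0.62 (edgeR adjusted p = 0.00397) with TMM and -0.05 (edgeR adjusted p = 0.773) with total counts only.

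Ctsh, an aminopeptidase, was the member that was lowest in the cornea: means were 347 ± 38.7 CPM in cornea, 1068 ± 269 in retina, 805 ± 23.2 in brain and 737 ± 54.2 in marrow (SD, n = 4). Cornea libraries, at 314 to 403 CPM, did not overlap any other population, and brain and marrow overlapped. The cornea level was 3.07-fold below retina, 2.32-fold below brain and 2.12-fold below marrow (edgeR adjusted p = 5.07e-08, 1.53e-06 and 5.82e-06). Retina exceeded marrow by 0.53 on the log2 scale (edgeR adjusted p = 0.0046), a call that ended with the lane as a term (0.48, edgeR adjusted p = 0.0563). The difference was 0.46 within lane 2, with its 1 marrow library, and 0.35 without retinal library 3 (edgeR adjusted p = 0.0152).

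Ctsc, the dipeptidyl peptidase that activates serine proteases of granulocyte and lymphocyte granules, had 1241, 1580.5, 1321 and 1330.3 CPM in cornea, 1150.2, 1129.8, 1559 and 996 CPM in retina, 861, 862, 874 and 937 CPM in brain and 1236, 1436, 1621 and 2028 CPM in marrow libraries. Brain libraries were the lowest and did not overlap the others. Brain microglia had 1.79-fold less Ctsc than monocytes (log2 fold change -0.84, SE 0.16, adjusted p = 0.000216, edgeR). Retinal microglia had 1.31-fold less (log2 fold change -0.39, SE 0.16, adjusted p = 0.0422, edgeR), a call that ended in 14 of 24 alternatives, among them RLE size factors (-0.35, edgeR adjusted p = 0.0727), the lane as a term (-0.23, edgeR adjusted p = 0.399) and leaving out marrow library 4 (-0.25, edgeR adjusted p = 0.162). Leaving out retinal library 1, 2 or 4, cornea library 3, brain library 3 or marrow library 3 also ended it, with log2 fold changes of -0.38 to -0.30. Cornea macrophages exceeded brain microglia by 0.63 (edgeR adjusted p = 0.00192) with TMM, but not with total counts only (-0.04, edgeR adjusted p = 0.803).

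Ctsa, the serine carboxypeptidase that shields neuraminidase and beta-galactosidase in the lysosome, passed the test in no pair of tissue populations with TMM over all 16 libraries. With total counts only, its log2 fold change was -0.61 in cornea against retina (edgeR adjusted p = 0.00628) and -0.80 in cornea against brain (edgeR adjusted p = 0.000821). Within lane 3, which has a single cornea library, cornea against brain was -0.63. Its mean was 1435 ± 317 CPM in cornea, 1264 ± 316 in retina, 1567 ± 263 in brain and 847 ± 81.5 in marrow (SD, n = 4). Neighbours in the order brain, cornea, retina and marrow overlapped in each step. The tissue populations exceeded monocytes by 0.76 (cornea), 0.58 (retina) and 0.89 (brain) on the log2 scale (edgeR adjusted p = 0.00232, 0.0157 and 0.000796). The cornea call ended with total counts only (0.08, edgeR adjusted p = 0.708). The log2 fold change was 0.86 in lane 2 and 0.29 in lane 3, where lane 2 has 1 marrow and lane 3 has 1 cornea library, too few to read a test. The retinal call ended with the lane as a term (0.33, edgeR adjusted p = 0.306), and without retinal library 1 (0.49, edgeR adjusted p = 0.0513) or 3 (0.45, edgeR adjusted p = 0.0557).

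Exons of Ctsa overlap those of Pltp and Neurl2 on the opposite strand, and exons of Ctsb overlap Fdft1, Ctsl overlaps Gm47123 and Ctsz overlaps Nelfcd in the same way. Ctsd shares 808 exon bases with Gm49369 on its own strand, and Ctsl shares 395 with the pseudogene Gm49230. The strand setting of the counting is not known, so reads in exon bases shared with opposite-strand partners cannot be told apart from those of the cathepsins. Reads in exon bases shared on the same strand cannot be told apart with any strand setting.

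The 6 pairs of populations were compared with edgeR's quasi-likelihood test, in which a gene is called at an adjusted p under 0.05 over all 15754 genes. In cornea macrophages against retinal microglia, 6 of the 10 cathepsins were called, 2 higher (Ctsb and Ctsk) and 4 lower (Ctsd, Ctsf, Ctsh and Ctss), where 66.0% of all tested genes were called, 30.9% higher and 35.1% lower. Against brain microglia, 8 of 10 were called in cornea macrophages, 4 higher (Ctsc and Ctsz besides Ctsb and Ctsk) and 4 lower, beside 66.8% of all genes, 33.8% higher and 33.1% lower. Against bone marrow monocytes, 8 of 10 were called in cornea macrophages, 7 higher and 1 lower (Ctsh), beside 63.3% of all genes, 32.2% higher and 31.1% lower. In retinal against brain microglia, 1 of 10 was called (Ctsz, higher), beside 10.5% of all genes, 6.95% higher and 3.6% lower. Retinal microglia differed from monocytes in 10 of 10 members, 8 higher and 2 lower (Ctsc and Ctsk), beside 59.3% of all genes, 32.2% higher and 27.1% lower. Brain microglia differed from monocytes in 9 of 10, 7 higher and 2 lower (Ctsc and Ctsk), beside 56.0% of all genes, 28.5% higher and 27.4% lower. The shares called among members thus lay near those of all genes in the cornea comparisons and in retina against brain. For the microglia against monocytes they lay above them. Part of those microglial calls ended in alternative fits: Ctsk in both microglia, and Ctsa, Ctsh and Ctsc (14 of 24 fits) in the retina. Against monocytes, 7 or 8 of 10 members were called higher in each tissue population.

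The median log2 fold change of the 10 members was 1.47 in cornea macrophages, 1.6 in retinal microglia and 1.23 in brain microglia against monocytes, beside medians of 0.00, 0.12 and 0.04 over all tested genes. It was 0.08 in cornea against retina, 0.14 in cornea against brain and 0.15 in retina against brain, beside -0.12, -0.00 and 0.05. Libraries of the populations did not overlap for 6 members in cornea against retina (59.1% of all genes), 8 in cornea against brain (62.4%), 8 in cornea against monocytes (57.9%), 2 in retina against brain (18.1%), 7 in retina against monocytes (55.2%) and 8 in brain against monocytes (56.7%). The comparisons share libraries, so their values stand side by side and are not independent of each other.

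With total counts only, the median of all genes moved to -0.92 in cornea against retina, -0.67 in cornea against brain and -0.67 in cornea against monocytes. Relative to the median of all genes, each member other than Ctsk moved by at most 0.012 between these scalings over the 6 comparisons. A change of scaling shifts all genes of a comparison by nearly the same amount, so this agreement is built in. It is no check of either scaling or of a direction that depends on it. On that relative scale Ctsb stood at 2.18 with either scaling in cornea against retina, Ctsd at -1.36 with TMM and -1.35 with total counts, Ctss at -1.91 and Ctsh at -1.50 and -1.49. Relative values of Ctss in cornea against monocytes were 0.41 and 0.40, and those of Ctsz and Ctsc in cornea against brain were 0.62 and 0.61, and 0.63 and 0.63.

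**Figure D4:**
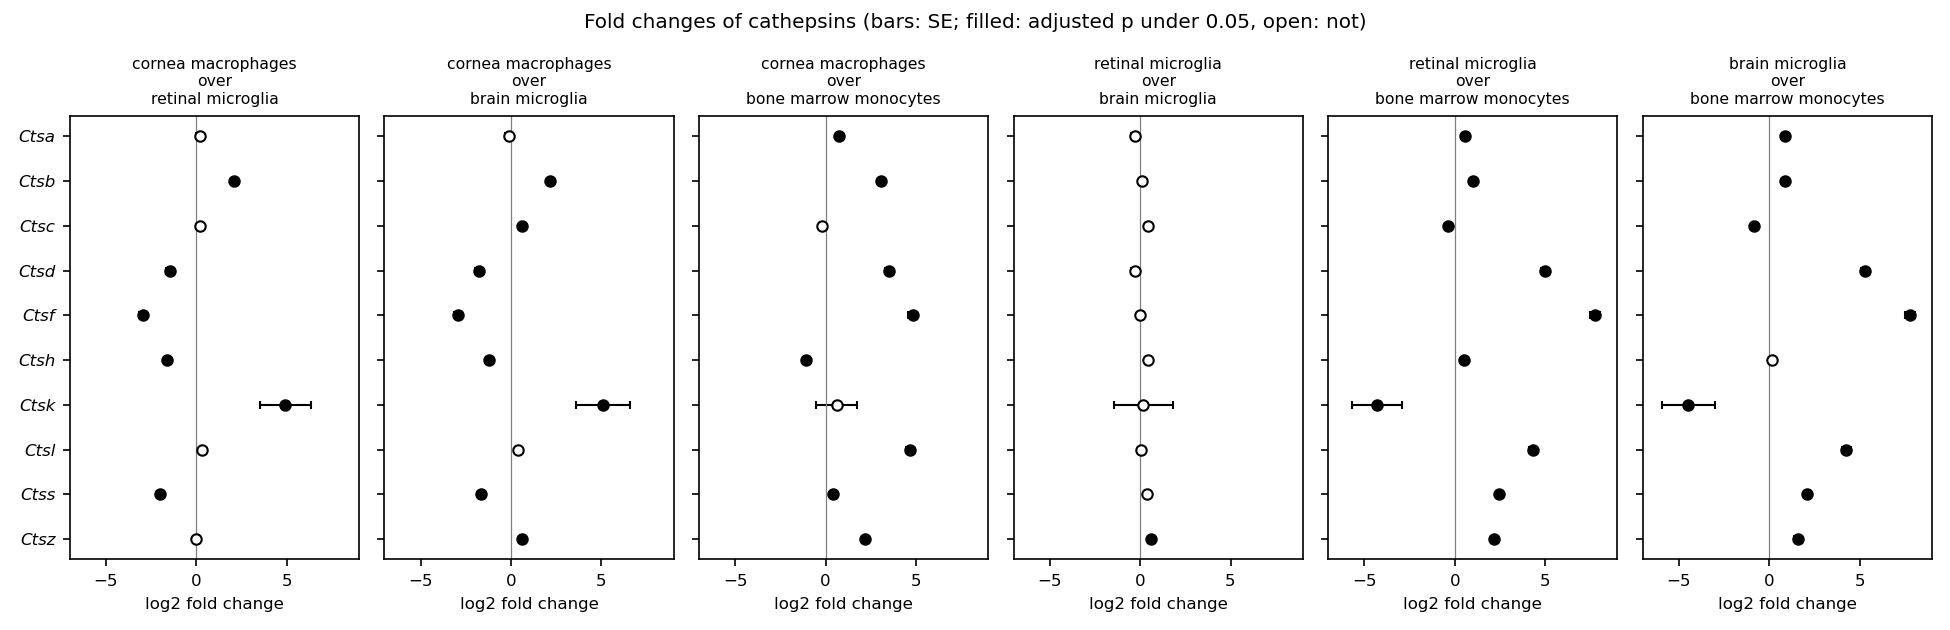
Log2 fold change (first population over second, edgeR fit) of each cathepsin in the 6 comparisons, with bars of 1 SE and filled points for adjusted p under 0.05. Ctsd, Ctsf and Ctsl stand between 3.49 and 7.77 in all 3 tissue populations against monocytes, and the points of retina against brain lie near 0, between -0.31 and 0.63. Cornea points shift together with the scaling, and with total counts only Ctss in cornea against monocytes and Ctsc and Ctsz in cornea against brain fall below 0.

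Values within a sequencing lane were available for part of the comparisons. In lane 2 (3 cornea and 4 retinal libraries), cornea against retina gave 1.90 for Ctsb, -1.41 for Ctsd, -2.06 for Ctss, -2.96 for Ctsf and -1.64 for Ctsh, with edgeR adjusted p of 4.99e-06, 0.000258, 5.83e-06, 1.45e-06 and 0.000172. In lane 3 (4 brain and 3 marrow libraries), brain against monocytes gave 5.41 for Ctsd, 7.83 for Ctsf, 4.32 for Ctsl and 2.13 for Ctss (edgeR adjusted p = 2.27e-10, 2.39e-09, 6.8e-09 and 1.57e-08). These values passed the test within the lanes. Within-lane values that rest on 1 library of a population are given with no test. Cornea library 4, alone in lane 3 and set apart from the other cornea libraries in its Ctsd level, gave 2.50 for Ctsb and -2.16 for Ctsd against brain. Marrow library 1, alone in lane 2, gave 4.71 for Ctsd and 7.69 for Ctsf in retina against monocytes.

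Levels over the 16 libraries were compared as log2 CPM with Pearson's r, as a description with no test, since the points share 4 population means. Ctsd and Ctsf had r = 0.985, Ctsl and Ctsz 0.941, Ctsd and Ctsl 0.917, and Ctsf and Ctss 0.891. Ctsb and Ctsh had r = -0.753, and the neighbours Ctss and Ctsk -0.626. Among 9325 genes with a mean of at least 10 CPM, the 3 most like Ctsd were Rab3il1, Pald1 and Il21r (r = 0.992 to 0.993), those most like Ctsf were Spsb1, Ddah2 and Syngr1 (0.991 to 0.993), and those most like Ctss were Tbxas1, Lair1 and Ptgs1 (0.987 to 0.993). Ctsb was most like Dtnbp1, Peli1 and Slc11a2 (0.989 to 0.993), and Ctsl most like Blnk, Kcnk13 and Rnf180 (0.987 to 0.991). Rab3il1 had 108 CPM in cornea, 455 in retina, 617 in brain and 3.49 in marrow on average, an order like that of Ctsd. Slc11a2, which encodes the metal transporter DMT1, had 1066 CPM in cornea, 55.2 in retina, 45.3 in brain and 17.4 in marrow, and the ubiquitin ligase gene Peli1 913, 225, 187 and 109.7 CPM. Likeness was lower for Ctsz (at most 0.965, with Gatm, Ccl12 and Pld3), Ctsh (0.979, with Gm5398, Pigx and Pld4), Ctsa (0.886, with Rps6kc1, Tmem33 and Mrpl3), Ctsk (0.878, with Pcna, Plscr1 and CAAA01154573.1) and Ctsc (0.869, with H2-D1, Oasl2 and Npc2).

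Of 15 listed cystatins and other protease inhibitors, 9 were tested. Of these, 7 were higher and 2 lower in cornea macrophages than in retinal microglia, 7 and 1 against brain microglia, and 6 and 2 against monocytes. Over all genes, 30.9% were higher and 35.1% lower in cornea than in retina, 33.8% and 33.1% than in brain, and 32.2% and 31.1% than in marrow. In retinal microglia 2 were higher and 0 lower than in brain microglia, and 4 were higher and 3 lower than in monocytes; brain microglia had 2 higher and 3 lower than monocytes. The shares over all genes were 6.95% higher and 3.6% lower in retina against brain, 32.2% and 27.1% in retina against monocytes, and 28.5% and 27.4% in brain against monocytes. Cst3, the secreted inhibitor cystatin C, had 2011 ± 206 CPM in cornea, 16919 ± 4741 in retina, 20816 ± 2454 in brain and 1027 ± 192 in marrow (SD, n = 4). The log2 fold change of cornea macrophages over retinal microglia was -3.07 (edgeR adjusted p = 4.03e-10). Cstb, the intracellular inhibitor stefin B, ran the other way, with 1612 ± 79.4 CPM in cornea, 41.8 ± 5.05 in retina, 38.3 ± 2.55 in brain and 85.1 ± 19.1 in marrow. It was 38.5-fold higher in cornea macrophages than in retinal microglia (edgeR adjusted p = 2.33e-13). Ctla2b, a homologue of cathepsin propeptides, had 164 ± 22.2 CPM in cornea, 28.3 ± 8.46 in retina, 9.61 ± 2.21 in brain and a count of 0 in all marrow libraries. Set against 3 counts over the group in place of 0, it was at least 3129-fold higher in cornea macrophages and at least 535-fold higher in retinal microglia than in monocytes. Serpinb1a, an inhibitor of granule serine proteases, had 108 ± 24.5 CPM in marrow and at most 1.63 CPM on average elsewhere.

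Among 10 genes of cathepsin sorting and activation, 2 were higher and 4 lower in cornea macrophages than in retinal microglia, 3 and 4 against brain microglia, and 5 and 5 against monocytes. Retinal microglia had 0 higher and 2 lower than brain microglia, and retinal and brain microglia each had 5 higher and 2 lower than monocytes. Over all genes, 66.0%, 66.8% and 63.3% were called in cornea against retina, brain and marrow, 10.5% in retina against brain, and 59.3% and 56.0% in retina and brain against marrow. Lgmn, the asparaginyl protease that cuts cathepsin precursors to their mature chains, had 1327 ± 72.0 CPM in cornea, 2969 ± 236 in retina, 3949 ± 417 in brain and 59.3 ± 8.39 in marrow (SD, n = 4). The excess over monocytes was 4.48, 5.64 and 6.06 on the log2 scale in cornea, retina and brain (edgeR adjusted p = 9.4e-14, 2.05e-14 and 9.97e-15). The mannose 6-phosphate receptor gene M6pr was 2.29-fold higher in cornea macrophages than in retinal microglia (edgeR adjusted p = 7.25e-07). The sorting receptor gene Sort1 was lowest in the cornea, with 9.75 ± 1.99 CPM against 227 ± 72.1 in retina, 391 ± 37.3 in brain and 302 ± 24.9 in marrow.

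Of the 4 MiT/TFE factors, which bind CACGTG elements, 2 were higher in cornea macrophages than in retinal and than in brain microglia (Tfec and Mitf), and 0 lower. Against monocytes, 3 were higher and 1 lower in cornea macrophages, and 2 higher and 2 lower in each microglia, while retina against brain had 0 calls at an adjusted p under 0.05 with edgeR, beside the same shares over all genes. Tfec had 57.9 ± 8.60 CPM in cornea, 0.449 ± 0.508 in retina, 0.611 ± 0.730 in brain and 22.4 ± 2.31 in marrow (SD, n = 4), and Mitf 116 ± 30.0, 30.2 ± 2.55, 25.9 ± 7.13 and 16.4 ± 4.13 CPM in the same order. Tfeb had 42.2 ± 1.19 CPM in cornea, 33.4 ± 5.62 in retina, 39.9 ± 4.10 in brain and 59.7 ± 8.92 in marrow. Tfe3 had 138 ± 16.1 CPM in cornea, 144 ± 10.1 in retina, 164 ± 19.2 in brain and 78.9 ± 5.38 in marrow.

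Of 29 other lysosomal proteins tested, 13 were higher and 14 lower in cornea macrophages than in retinal microglia, and 11 and 14 than in brain microglia, where 30.9% and 35.1%, and 33.8% and 33.1%, of all genes were higher and lower. Against monocytes, 17 were higher and 7 lower in cornea macrophages, 17 and 6 in retinal microglia, and 18 and 5 in brain microglia, beside 32.2% and 31.1%, 32.2% and 27.1%, and 28.5% and 27.4% of all genes. Retina against brain had 1 higher and 3 lower, beside 6.95% and 3.6%. Median log2 fold changes against monocytes were 0.85, 0.69 and 0.69 in cornea, retina and brain. Gla, the alpha-galactosidase, had 829 ± 191 CPM in cornea, 7.87 ± 1.82 in retina, 4.58 ± 3.02 in brain and 15.4 ± 3.74 in marrow, and was highest in the cornea, as Ctsb was. Acp5, the tartrate-resistant phosphatase of osteoclasts and some macrophages, had 145 ± 38.4 CPM in cornea and at most 9.08 CPM on average elsewhere.

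Proteins that cathepsins process were tested for 6 of 8 listed genes. Cd74, the invariant chain cut by cathepsins S and L, had 18498 ± 3791 CPM in cornea, 149 ± 35.9 in retina, 41.4 ± 9.89 in brain and 577 ± 116 in marrow (SD, n = 4). It was highest in cornea macrophages, where Ctss was lower than in either microglia. Tlr7, the RNA sensor cut in endosomes, had 262 ± 26.1 CPM in cornea, 283 ± 15.9 in retina, 395 ± 32.1 in brain and 97.5 ± 7.21 in marrow. Elane and Prtn3, which encode granule proteases activated by cathepsin C, and Mpo, which encodes myeloperoxidase, had 153 ± 57.6, 55.5 ± 19.3 and 378 ± 146 CPM in marrow and at most 0.192 CPM on average elsewhere. In this list, 2 genes were higher and 0 lower in cornea than in retina, 1 and 1 in cornea than in brain, 2 and 3 in cornea than in monocytes, 1 and 1 in retina than in brain, and 1 and 4 in each microglia than in monocytes, beside the shares over all genes given with the inhibitors.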

How the data were processed

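The 16 libraries hold RNA of 4 sorted mouse populations, grouped by the labels' source names. The deposited table gives raw counts of reads per gene, whole numbers that the authors did not normalise, and a gene length in bases, per the file headers. The submitters' processing notes list Subread, limma, featureCounts and CASAVA 1.8.2, and build GRCm38.p4 of the genome. The extraction text in the labels describes another tissue and mouse line, so neither library kit nor strand is known. Symbols of 27 entries had been turned into dates (at most 0.223% of a library's counts).

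Genes passing filterByExpr by population (minimum count 10) were kept, 15754 in all. One edgeR 4.0.16 model (R 4.3.3) held all 16 libraries, with TMM factors and no covariate beside population. Pairs were compared by its quasi-likelihood test at a threshold of 0.05 after Benjamini-Hochberg adjustment across the 15754 genes. The SE is the absolute log2 fold change over the square root of F. CPM are counts relative to the TMM-scaled library total, and per-length values divide them by the gene length in the table. Shares are of the summed counts of the 10 cathepsins. Intervals and floors (3 counts over a group) cover counting error only. The fit was tested on simulated data with known changes.

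The members and the gene lists were chosen with earlier results of these data known. From each list, up to 3 called genes per direction and comparison could be named, those with the largest fold change among genes with a mean of at least 10 CPM in the higher population, and the 3 genes most like each member; Tfe3 and Tfeb complete their family. Lists were cystatins and other inhibitors, sorting and activation, MiT/TFE factors, other lysosomal proteins, proteins processed by cathepsins and other cathepsins. Alternatives were DESeq2 1.42.0, RLE size factors, total counts only, no filter, 2 populations per fit, lane as a term, single lanes, leaving out each library, leaving out the 3 libraries whose titles lack a letter b, and a block for title ranges shared by brain and marrow libraries. No 2 libraries of a population were copies (chi-square per degree of freedom 11.29 to 95.5 over 24 pairs). Coordinates come from GENCODE vM21 and promoter windows from RefSeq (GRCm38.p6).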

Additional observations from a re-analysis of the deposited data

Results flagged for a closer look

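Within each population, a library was set apart where its gap to the nearest other library took up more of the range of the 4 libraries than Dixon's critical value allows. This held for 5 of 40 combinations of member and population in CPM and for 2 of 40 in shares of the cathepsin counts, and chance gives about 1 in 20.

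In bone marrow library 1, Ctsk had 11.0 CPM and a share of 0.126% of the cathepsin counts, against at most 0.639 CPM and 0.00742% in the other marrow libraries. Acp5, a gene of osteoclasts and some macrophages, had its highest marrow value in the same library. The 5 osteoclast markers summed there to 16.4 CPM, against 6.11 to 8.49 CPM in the other marrow libraries. Of the 5, 3 had a count in marrow libraries, and Calcr and Dcstamp had none. Granulocyte markers summed in library 1 to 2985 CPM against 605 to 1378 in the others, and erythroid markers to 2388 CPM against 349 to 1565.5. That library was also the only marrow library of lane 2. The part of lane or of other cells was not tested.

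Cornea library 4, the only cornea library of lane 3, had 4025 CPM of Ctsd, against 5383 to 5561 in the other cornea libraries, and 3018 CPM of Ctsz, against 2520 to 2596. The largest Ctsb share (69.4%) was in this library too. Brain library 4 had 937 CPM of Ctsc, against 861 to 874, and 399 CPM of Ctsf, against 366 to 368 in the other brain libraries. Retinal library 1 had a Ctsl share of 3.35%, against 2.27% to 2.45% in the other retinal libraries.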

How the results depend on the processing

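Of the 42 calls of a member over the 6 comparisons, 31 kept their direction and side of the threshold in every alternative. With total counts only, cornea against retina gave 10 calls (2 higher, 8 lower), beside 2922 genes higher and 8489 lower of all 15754, and retina against brain 4 (Ctsc, Ctsh, Ctss and Ctsz, all higher), beside 1353 higher and 290 lower. Retina against brain gave 2 with DESeq2 and 0 with the lane as a term, with only the 2 populations in the fit (9 members tested) and without the 3 libraries whose titles lack a letter b. Over all genes, this pair had 2315 calls with DESeq2 and 463 with the lane as a term, of 15754 each. It had 1551 of 13754 with only the 2 populations and 1271 of 16931 without those 3 libraries, against 1662 of 15754 in the main fit. Leaving out 1 library gave 0 to 3 calls there, 6 to 7 in cornea against retina, 8 to 9 in cornea against brain, cornea against monocytes and brain against monocytes, and 8 to 10 in retina against monocytes. The counts over all genes in these fits are not given here, so the ranges are not read as particular to cathepsins. Summed CPM with total counts only were 25852 in cornea, 39943 in brain and 9622 in marrow. Leaving out 1 library gave 35924 to 38488 in cornea, 33361 to 39165 in retina, 34972 to 37295 in brain and 8546 to 8904 in marrow.

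With total counts only, which shifted the median of all genes in each cornea comparison as given above, signs changed for Ctsa (-0.61), Ctsc (-0.61) and Ctsl (-0.46) in cornea against retina, for Ctsc (-0.043), Ctsl (-0.27) and Ctsz (-0.054) in cornea against brain, and for Ctsk (-0.027) and Ctss (-0.27) in cornea against monocytes. The cause of the following changes was not tested. With a single cornea library in lane 3, Ctsl in cornea against brain was -0.15, and with a single marrow library in lane 2, Ctsc and Ctsk in cornea against monocytes were 0.15 and -1.46. Ctsz in cornea against retina turned to 0.034 with RLE factors and with DESeq2 and 0.26 without the libraries lacking a b, and lay between -0.13 and 0.25 when a library was left out, passing the test at 0.25 without retinal library 3 (edgeR adjusted p = 0.0451). In retina against brain, where none of the following was called, Ctsf, Ctsk and Ctsl were -0.086, -1.81 and -0.32 with the lane as a term, and Ctsf and Ctsl -0.10 and -0.22 without the libraries lacking a b. Leaving out a library gave -0.11 to 0.094 for Ctsf, -1.51 to 1.09 for Ctsk and -0.055 to 0.19 for Ctsl.

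The replicate block, possible for brain against monocytes only, gave 8 calls, beside 8575 of all 15754 genes, and ended that of Ctsk (-3.75, edgeR adjusted p = 0.0851). Deviations of brain and marrow libraries with the same range in their titles correlated at -0.01 and 0.033, and those with different ranges at -0.007 and -0.027. Such values between different cell types cannot tell whether libraries of the same range share mice. Per-length scaling moved 34 of 40 shares by more than 1 SD, and leaving Ctsd out of the sum moved 26 of 36. Depth limits Ctsk in microglia, where 11 (retina) and 6 (brain) counts were seen in all. The lane cannot be told apart from the tissue in retina against brain.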

Other observations

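Cathepsins outside the 10 were mostly silent. Of 13 listed, 9 were not tested, and 6 of these (Ctsm, Ctsq, Cts3, Cts6, Cts7 and Cts8) had a count of 0 in all 16 libraries; the cluster they belong to is expressed in the mouse placenta. Ctso, a cysteine cathepsin, had 81.2 ± 3.64 CPM in cornea, 149 ± 16.6 in retina, 240.2 ± 18.6 in brain and 47.8 ± 6.60 in marrow (SD, n = 4), and no populations overlapped. Retinal microglia had less Ctso than brain microglia (log2 fold change -0.69, edgeR adjusted p = 0.0013), a pair in which the lanes differ too. Ctse, an aspartic cathepsin, had 4.94 ± 3.01 CPM in cornea, 11.8 ± 3.35 in retina, 1.74 ± 0.931 in brain and 33.2 ± 7.21 in marrow, and was higher in retinal than in brain microglia (2.76, edgeR adjusted p = 0.000745). Ctsg, a serine protease of granulocyte granules, had 31.4, 16.4, 15.3 and 18.4 CPM in marrow libraries, with 0 counts in cornea and brain and 1 count in retina. It was at least 364.5-fold lower in cornea macrophages and at least 340.3-fold lower in brain microglia than in monocytes, set against 3 counts over the group in place of 0. Over these 4 tested genes, cornea against retina had 0 higher and 2 lower, cornea against brain 1 and 1, cornea against monocytes 1 and 2, retina against brain 1 and 1, and each microglia against monocytes 1 and 2. Of all genes, 66.0%, 66.8% and 63.3% were called in cornea against retina, brain and monocytes. The shares were 10.5% in retina against brain, and 59.3% and 56.0% in retina and brain against monocytes.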
